A study of Rattus norvegicus with 12 samples.

Results

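The anterior pituitary glands of DES-treated Ept2 rats were compared directly with those of DES-treated Ept9 rats. The comparison used all 3 expression arrays of each line, 6 of the 12 arrays analysed here. Both lines are congenic: alleles of the Copenhagen (COP) strain were bred onto the ACI background, within the Ept2 locus on chromosome 3 in one line and within the Ept9 locus on chromosome 10 in the other. All animals were males. Each received a subcutaneous implant of 5 mg of the synthetic estrogen diethylstilbestrol (DES) at 9 weeks of age and was killed at 21 weeks, after 12 weeks of treatment, with a BrdU injection of 50 mg/kg 4 h before. The DES-treated lines Ept1 (COP alleles on chromosome 6) and Ept6 (COP alleles on chromosome 3), with 3 arrays each, serve below to show where a gene stands elsewhere on the ACI background. No untreated gland and no ACI gland was analysed here, and where the COP segments begin and end was not available to this comparison. The labels describe the replicates both as 3 biological replicates and as 3 males giving fewer independent replicates, so the p-values may measure a spread that is in part technical.

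The lactotrophs of the anterior pituitary make prolactin. Estrogens act on them through the estrogen receptor, raise prolactin production and drive their division, and in ACI rats prolonged exposure leads to massive growth of the gland. The Ept loci were named for their influence on that growth. In a direct comparison of 2 congenic lines on 1 background, genes inside either COP segment can differ through their own alleles, and genes elsewhere can differ downstream of them. The arrays read signal at probe sets, and whether a difference in signal is one in RNA amount was not tested. In this design a gene on chromosome 3 or 10 cannot be assigned to a segment by its chromosome alone, because the segments cover only part of each.

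The arrays read as pituitary. The signals of *Prl*, *Gh1* and *Cga*, which encode prolactin, growth hormone and the shared subunit of the glycoprotein hormones, were at or above percentile 99.9 of their array on all 6 arrays. *Pomc*, the corticotroph precursor gene, was read by 1 probe set with signals from 10.6 to 90.7, at percentiles 12.5 to 44.0, so corticotrophs cannot be followed through it. The posterior lobe genes *Avp* (6.2 to 35.7) and *Oxt* (6.7 to 154) were dim, and *Hbb*, a globin gene of red blood cells, was bright (17963 to 28746). Arrays of the same line correlated at 0.958 to 0.970 and arrays of different lines at 0.960 to 0.967, so the ranges within and between lines overlapped. RNA quality did differ in direction. For GAPDH, the 3′ control signal exceeded the 5′ one on the log2 scale by 0.40, 0.31 and 0.42 in Ept2 and 0.28, 0.17 and 0.17 in Ept9. The beta-actin controls (means 1.81 and 1.60) and the hexokinase controls (1.29 and 0.93) were also higher in Ept2 on every array. Each of the 3 controls gave an exact two-sided permutation p of 0.1, the smallest that 3 arrays against 3 allow.

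Only 2 of 31042 probe sets passed the test between Ept2 and Ept9 (0.00644%, limma with Benjamini-Hochberg adjustment at 0.05). A probe set for *Ddx5* was higher in Ept2 (1 called, 0.00322% of those tested) and *Akr1b8* was lower in Ept2 (1 called, 0.00322%). Before adjustment, 2424 probe sets (7.81%) had a p under 0.05, 1447 of them higher in Ept2 (4.66%) and 977 lower (3.15%). The 3 arrays of Ept2 lay entirely above or below the 3 of Ept9 at 4440 probe sets (14.3%). Of these, 509 (1.64% of all) also differed by more than 1 on the log2 scale. The count of 2 is fragile. It became 0 when any 1 of the 6 arrays was left out (limma, with 2042 to 2619 probe sets at an unadjusted p under 0.05). It was also 0 when the GAPDH 3′ minus 5′ difference entered as a covariate (limma, 2120 at an unadjusted p under 0.05). That covariate was itself higher in Ept2 on every array and takes up a degree of freedom. The loss of calls with it therefore cannot separate RNA quality from line. It reached 28 of 18626 (0.15%) without dim probe sets and 51 of 31042 (0.164%) when the 6 arrays of Ept1 and Ept6 helped to estimate the spread. Differences are given as Ept2 minus Ept9 in log2(signal + 16), which understates the change of dim genes. In bulk tissue, fewer cells of a type and less RNA per cell cannot be told apart.

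*Ddx5*, a chromosome 10 gene that encodes a DEAD-box RNA helicase acting in transcription and splicing, gave the smallest p of all. Its called probe set read 7838, 8180 and 7298 in Ept2 and 743, 623 and 753 in Ept9. No Ept9 array came near an Ept2 array, and the difference was 3.43 (SE 0.13, 95% confidence interval 3.11 to 3.75), that is 10.8-fold (adjusted p = 0.00493, limma). The same probe set read 7558 to 7927 in Ept1 and 7352 to 8135 in Ept6, so Ept9 stood apart from all the other lines and Ept2 did not. In the fit over 12 arrays, Ept9 differed from the mean of Ept1 and Ept6 by -3.43 (SE 0.09, limma adjusted p = 1.52e-07) and Ept2 by 0.00 (SE 0.09, limma adjusted p = 0.998). A second probe set that the annotation also assigns to *Ddx5* did not show this. It read 8565, 7269 and 7581 in Ept2 and 9153, 9153 and 9243 in Ept9, a difference of -0.24 (SE 0.12, unadjusted p = 0.0883, limma). The probes' sequences were not used here, so which parts of the transcript the probe sets read is not known. Whether the called difference is one in the amount of *Ddx5* RNA was not tested. The call of *Ddx5* was lost with each array left out (limma adjusted p from 0.0636 to 0.0948) and with the GAPDH covariate (0.637). The size stayed between 3.35 and 3.48 with each array left out and was 3.42 with the covariate.

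**Figure D1:**
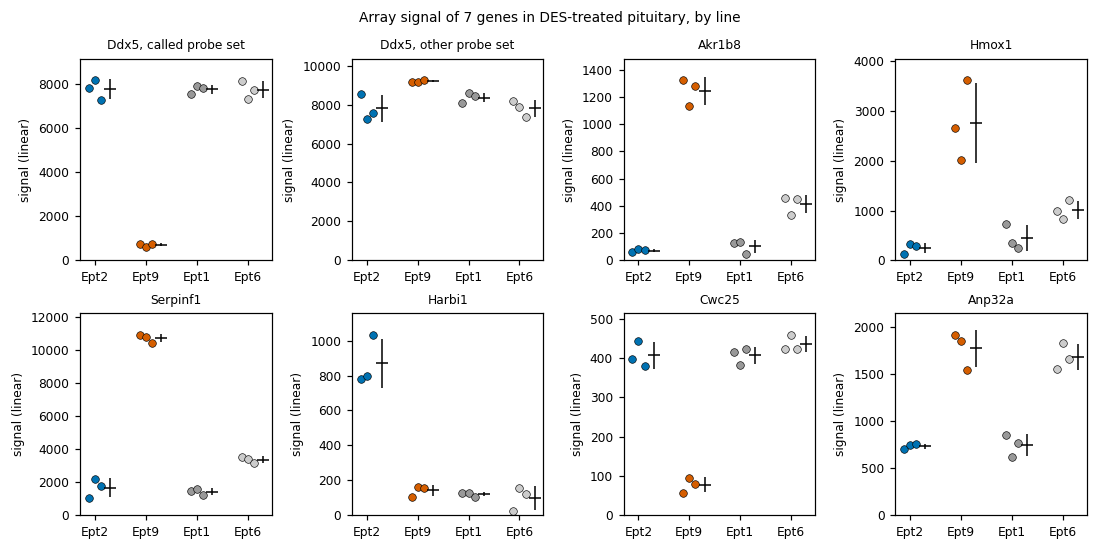
Array signal (linear scale, y axis from 0) of 7 genes in the 4 DES-treated lines (x axis), *Ddx5* with both of its probe sets; each circle is 1 array, the short bar is the mean and the vertical line the SD of 3 arrays. At the called *Ddx5* probe set Ept9 reads 623 to 753 and the other lines 7298 or more, while at the other *Ddx5* probe set all lines read 7269 or more; *Akr1b8*, *Hmox1* and *Serpinf1* are highest in Ept9.

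*Akr1b8*, a chromosome 4 gene that encodes an aldo-keto reductase reducing reactive aldehydes, was lower in Ept2. Its signal was 59.8, 82.9 and 75.6 in Ept2 and 1322, 1131 and 1282 in Ept9. The groups lay far apart, with a difference of -3.83 (SE 0.15, 95% confidence interval -4.20 to -3.47), 14.3-fold higher in Ept9 (adjusted p = 0.00493, limma). Ept1 read 50.3 to 136 and Ept6 335 to 456, so Ept1 overlapped Ept2 and Ept6 lay between Ept2 and Ept9. Against the mean of Ept1 and Ept6 the Ept9 difference was 2.52 (SE 0.25, limma adjusted p = 0.00607) and the Ept2 difference -1.31 (SE 0.25, limma adjusted p = 0.125). This call too was lost with each array left out (limma adjusted p from 0.0636 to 0.0948) and with the GAPDH covariate (0.637). The size ran from -3.92 to -3.72 with each array left out and was -3.80 with the covariate.

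*Akr1b8* belongs to a list of 17 measured genes of the NRF2 and glutathione response, in which the transcription factor NRF2 binds antioxidant response elements and switches on enzymes of detoxification. It was the only member that passed the test, where 1 of 14217 genes did (0.00703%, the brightest probe set of each gene). *Hmox1*, which encodes the heme-degrading enzyme heme oxygenase, read 130, 325 and 284 in Ept2 and 2660, 2015 and 3613 in Ept9. No array of one line reached the other line, but the difference of -3.46 (SE 0.39) did not pass (limma adjusted p = 0.12). It passed in the fit over 12 arrays (limma adjusted p = 0.0184), which called 2 members of the list, and with dim probe sets left out (limma adjusted p = 0.0358). *Gstp1*, a glutathione transferase gene, gave means of 7255 and 9187 (-0.34, SE 0.14, unadjusted p = 0.0464, limma). Together, 3 members had an unadjusted p under 0.05 on the lower side and none on the higher, beside 2.74% and 4.4% of all genes. The median of the list was -0.03, beside 0.02 for all genes. Other classical NRF2 targets had close means in Ept2 and Ept9, with overlapping groups: *Nqo1* 342 and 371 (-0.13, SE 0.19), *Gclm* 406 and 412 (-0.03, SE 0.16), *Gclc* 440 and 445 (-0.02, SE 0.15) and *Txnrd1* 1082 and 1158 (-0.10, SE 0.12). The glutathione transferase gene *Gstm1* read 945, 660 and 732 in Ept2 and 580, 624 and 485 in Ept9 (0.45, SE 0.18, unadjusted p = 0.0502, limma), higher in Ept2 without overlap. *Slc7a11*, a cystine transporter gene (71.6 and 48.5, 0.51, SE 0.29), and *Gsta1*, another glutathione transferase gene (532 and 883, -0.65, SE 0.36), had overlapping groups.

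The promoters of *Akr1b8* and *Gstp1* are shown because these list members had an unadjusted p under 0.05 and a RefSeq entry (GRCr8), given as 300 bases from 250 before to 50 after the gene start. They lie at chr4:63964171-63964470 on the plus strand and chr1:210769656-210769955 on the minus strand. Capitals mark the core of the antioxidant response element, TGACNNNGC, searched on both strands.
Akr1b8: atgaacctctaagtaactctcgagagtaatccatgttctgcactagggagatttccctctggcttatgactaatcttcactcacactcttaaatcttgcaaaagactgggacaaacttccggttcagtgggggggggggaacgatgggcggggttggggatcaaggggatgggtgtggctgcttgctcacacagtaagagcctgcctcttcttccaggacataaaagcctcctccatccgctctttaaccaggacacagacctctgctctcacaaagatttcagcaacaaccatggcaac
Gstp1: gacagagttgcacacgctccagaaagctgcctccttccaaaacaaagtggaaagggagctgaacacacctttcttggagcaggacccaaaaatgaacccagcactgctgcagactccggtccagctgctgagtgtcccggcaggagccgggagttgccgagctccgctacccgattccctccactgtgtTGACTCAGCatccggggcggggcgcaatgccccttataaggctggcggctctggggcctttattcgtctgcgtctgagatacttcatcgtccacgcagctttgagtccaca
The *Gstp1* window held 1 match, TGACTCAGC at bases 190 to 198, and the *Akr1b8* window held 0, where 4038 of 33469 promoters of this length hold at least 1 (12.1%). Of further windows searched, that of *Ddx5*, not a member of the list, held 1 match at bases 284 to 292. Those of *Slc40a1*, *Gpnmb* and *Serpinf1* held 0, and *Hmox1* had no entry in the promoter set. A match is a run of letters and not a measured binding site, and the absence of one concerns the searched window only.

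Further genes with high signal in Ept9 are named after their values were seen. *Serpinf1*, a chromosome 10 gene for the secreted anti-angiogenic serpin PEDF, read 1047, 2194 and 1769 in Ept2 and 10917, 10808 and 10454 in Ept9. Ept9 stood above every other array, Ept1 (mean 1408) and Ept6 (mean 3366) included. The Ept2 minus Ept9 difference of *Serpinf1* was -2.74 (SE 0.28, limma adjusted p = 0.113). It passed in the fit over 12 arrays (limma adjusted p = 0.00214) and with dim probe sets left out (limma adjusted p = 0.0274). *Slc40a1*, the gene of the iron exporter ferroportin, gave the order Ept2, Ept1, Ept6, Ept9 from low to high means at each of 3 probe sets. The brightest read 312, 701 and 589 in Ept2 and 2734, 1500 and 2041 in Ept9 (-1.97, SE 0.36), and the others differed by -1.91 (SE 0.34) and -1.85 (SE 0.42). *Gpnmb*, a membrane glycoprotein gene of macrophages, read 874, 1614 and 1476 in Ept2 and 4201, 2776 and 4283 in Ept9 (-1.52, SE 0.30). *Pf4*, a platelet chemokine gene, had means of 598 and 1431 (-1.22, SE 0.18) and *Fcna*, a lectin gene of macrophages, 208 and 649 (-1.59, SE 0.28). The groups did not overlap at any of these probe sets, which were picked with their values in view. Such separation was found at 14.3% of all probe sets. In the 6-array fit the limma adjusted p of *Slc40a1* was 0.254 to 0.385, of *Gpnmb* 0.309, of *Pf4* 0.181 and of *Fcna* 0.244, so none was called.

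Of 18 measured macrophage and antigen presentation genes, none was called, 7 had a positive difference and 11 a negative one, and the median was -0.28. An unadjusted p under 0.05 was reached on the lower side by 4, *Gpnmb*, *Cd14* (means 423 and 744), *Cd68* (434 and 698) and *Cd163* (97.8 and 223), beside 2.74% of all genes. It was reached on the higher side by 1, the lysosomal protease gene *Ctss* (3873 and 3232), beside 4.4%. The antigen presentation genes went the other way, with *Cd74* at 0.51, *RT1-Da* at 0.51, *RT1-Bb* at 0.60 and *RT1-Ba* at 0.31. Ept2 array 1 stood apart within this list, though not alone. Ept9 array 1 read 352 for *Cd163*, against 155 and 161 on the other Ept9 arrays. It also read 848 for *Cd68*, against 568 and 678, but was not the highest for *Cd14* (793, 550 and 890). *C1qa*, which encodes a chain of the complement component C1q made by tissue macrophages, read 3466, 5054 and 4561 in Ept2 and 6056, 4656 and 5364 in Ept9. Without Ept2 array 1 its difference went from -0.31 to -0.15, that of *C1qb* from -0.25 to -0.07, that of *C1qc* from -0.39 to -0.13 and the list median from -0.28 to -0.05. Without that array 1 member was on the lower side at an unadjusted p under 0.05 (*Gpnmb*, -1.25) and 4 on the higher side (*Cd74* 0.81, *RT1-Da* 0.89, *RT1-Bb* 0.96 and *RT1-Ba* 0.78). *Hmox1* then differed by -3.08 and *Slc40a1* by -1.64. What part macrophages had in the *Hmox1*, *Slc40a1* and *Gpnmb* values was not tested.

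The remaining probe sets among the 20 with the smallest unadjusted p were not called, and all had a limma adjusted p of 0.113. *Harbi1*, a chromosome 3 gene for a transposase-derived protein, read 780, 797 and 1033 in Ept2 and 106, 162 and 157 in Ept9 (2.50, SE 0.21). Here Ept2 was the line that stood apart, with Ept1 at 105 to 129 and Ept6 at 21.7 to 153. Its second probe set gave -0.17 (SE 0.16). *Zfp770*, a zinc finger gene on chromosome 3, read 52.8, 53.9 and 61.6 in Ept2 and 190, 237 and 168 in Ept9 (-1.56, SE 0.16), and its brighter probe set gave -0.04 (SE 0.16). *Cwc25*, a spliceosome gene on chromosome 10, read 397, 444 and 379 in Ept2 and 57.5, 94.5 and 80.1 in Ept9 (2.20, SE 0.18). Ept1 (383 to 423) and Ept6 (423 to 459) read as Ept2 did, which leaves Ept9 alone at the low level. With dim probe sets left out, the limma adjusted p was 0.0178 for *Harbi1* and *Cwc25* and 0.0274 for *Zfp770*. In the fit over 12 arrays *Cwc25* passed (limma adjusted p = 0.000594), while *Harbi1* (0.0825) and *Zfp770* (0.0584) did not.

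The other named genes of the 20 were read by probe sets that were dim in both lines or in one. *Grm6*, a glutamate receptor gene on chromosome 10, had means of 62.8 in Ept2 and 6.73 in Ept9 (1.79, SE 0.15), and its other 2 probe sets gave 0.75 and -0.27. *Gc*, the vitamin D binding protein gene, read 75.9 and 7.67 (1.94, SE 0.19), *Lingo1*, a neuronal membrane protein gene, 34.4 and 6.53 (1.16, SE 0.10), *Sdsl*, a serine dehydratase gene, 70.2 and 15.1 (1.47, SE 0.15), and *Cspg5*, a brain proteoglycan gene, 17.0 and 81.1 (-1.57, SE 0.16). Their other probe sets gave smaller differences. The brightest of *Lingo1* read 417 and 332 (0.30, SE 0.25), and a dim one gave 0.54 (SE 0.48). That of *Gc* gave 0.23 (SE 0.38) and that of *Sdsl* 0.40 (SE 0.31). The last 9 of the 20 have no symbol or more than 1. The brightest, 1375676_at, read 3367, 5498 and 3620 in Ept2 and 898, 830 and 912 in Ept9 (2.19, SE 0.21), with Ept1 (mean 885) and Ept6 (mean 985) at the Ept9 level. 1395260_at read 171 to 230 in Ept2 and 528 to 595 in Ept9 (-1.45, SE 0.14), with Ept1 and Ept6 again at the Ept9 level. 1379511_at read 183 to 270 in Ept2 and 722 to 840 in Ept9 (-1.82, SE 0.18), and there Ept1 (mean 251) and Ept6 (mean 278) sided with Ept2.

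The fit over 12 arrays took its spread from all 4 lines and called 51 probe sets, 16 higher in Ept2 (0.0515%) and 35 lower (0.113%). The genes named from it were chosen after their values were seen. Ept1 and Ept6 were not part of the Ept2 against Ept9 contrast, so where they lie is a separate reading. At 18 of the 51 the means of both lay nearer Ept2, at 11 both lay nearer Ept9, at 20 Ept1 lay nearer Ept2 and Ept6 nearer Ept9, and at 2 the reverse. Over all 31042 probe sets these counts were 9626, 10797, 5835 and 4784.

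On chromosome 10, where Ept9 carries its COP segment, 9 of the 51 were found (28.1% of the 32 with a chromosome, beside 8.35% of all probe sets with a chromosome), and at 8 of these both Ept1 and Ept6 lay nearer Ept2. Beside *Ddx5*, *Cwc25* and *Serpinf1* they were *Fn3k*, *Sco1*, *Nog*, *Birc5* and *C10h17orf58*. *Fn3k*, which encodes the enzyme fructosamine 3 kinase that removes sugar from glycated proteins, read 1399, 957 and 1246 in Ept2 and 2971, 2864 and 3068 in Ept9. Ept1 (mean 1213) and Ept6 (mean 1096) matched Ept2 in level, and the Ept2 minus Ept9 difference was -1.31 (SE 0.17). *Nog*, the gene of the BMP antagonist noggin, read 725, 777 and 741 in Ept2 and 1179, 1134 and 1202 in Ept9 (-0.64, SE 0.10). It was tightly grouped, with Ept1 at 791 to 861 and Ept6 at 662 to 738. *Sco1*, which delivers copper to cytochrome oxidase, read 490, 554 and 605 in Ept2 and 315, 314 and 274 in Ept9 (0.83, SE 0.13). *Birc5*, the gene of the mitotic protein survivin, read 66.7, 97.7 and 82.9 in Ept2 and 227, 164 and 172 in Ept9 (-1.05, SE 0.19), with Ept1 and Ept6 between 105 and 137. *C10h17orf58*, of unassigned function here, was higher in Ept2 at both its probe sets (0.93, SE 0.17, and 0.59, SE 0.12).

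On chromosome 3, where Ept2 carries its COP segment, 4 of the 51 were found (12.5% of the 32, beside 7.54% of all), and at 3 of them, *Spint1*, *Ptprj* and *Iftap*, both other lines lay nearer Ept9. *Spint1*, which encodes an inhibitor of the proteases that activate hepatocyte growth factor, read 2393, 2556 and 2534 in Ept2 and 1309, 1262 and 1077 in Ept9 (1.03, SE 0.13). Ept1 (1300 to 1401) and Ept6 (1203 to 1228) stayed near Ept9, so Ept2 alone was high. *Ptprj*, a receptor tyrosine phosphatase gene, read 179, 149 and 179 in Ept2 and 425, 373 and 356 in Ept9 (-1.12, SE 0.14), and its brighter probe set gave -0.17 (SE 0.12). *Iftap*, which encodes a protein associated with intraflagellar transport, read 1111, 983 and 1010 in Ept2 and 1600, 1686 and 1600 in Ept9 (-0.65, SE 0.11), with Ept1 and Ept6 from 1401 to 1591. The fourth was *Fcna*, where Ept1 lay nearer Ept2 and Ept6 nearer Ept9.

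The group of 20 at which the Ept1 mean lay nearer Ept2 and the Ept6 mean nearer Ept9 held 1 probe set on chromosome 10 (*Cyth1*), 1 on chromosome 3 (*Fcna*), 12 on other chromosomes and 6 with no chromosome. The 12 include probe sets of *Akr1b8*, *Hmox1* and *Slc40a1*, where the Ept6 mean lay between those of Ept2 and Ept9. The share on other chromosomes, 12 of 14 (85.7%), was near that of all probe sets (84.1%). *Anp32a*, which encodes an acidic nuclear phosphoprotein on chromosome 8, read 705, 742 and 758 in Ept2 and 1918, 1858 and 1547 in Ept9. Ept1 read 619 to 848 and Ept6 1554 to 1835, so the lines fell in pairs, with an Ept2 minus Ept9 difference of -1.25 (SE 0.13). In the order of the samples, Ept1 and Ept2 come before Ept6 and Ept9. In this design, line cannot be told apart from any difference in processing between these pairs. *Tmed9*, a cargo receptor gene of the early secretory pathway, split in the same way at 1 probe set (means 636 and 1934 in Ept2 and Ept9, 610 and 2036 in Ept1 and Ept6), while its brighter probe set read 10326 and 10829 (-0.07, SE 0.10). *Rad23b*, a DNA repair gene, did so too at its dimmer probe set (means 125 and 322, -1.26, SE 0.17), beside 0.00 (SE 0.10) at its brighter probe set. *Pfdn6* (chaperone subunit, means 1396 and 2667), *Thoc3* (mRNA export, 528 and 1072) and *Lmnb1* (nuclear lamina, 283 and 547) were lower in Ept2, and *Slc7a5* (amino acid transporter, 500.0 and 251) and *Nfib* (transcription factor, 210.0 and 90.5) were higher. *Anp32a* and the genes named after it were each called at 1 probe set in the 12-array fit and none in the 6-array fit.

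Genes read by more than 1 probe set gave a second reading of the same gene. Among the 100 probe sets with 1 symbol and the smallest p, 19 belonged to genes with at least 1 other probe set that passed the dim filter. That filter is a mean signal of 70.2, under the median signal of 124, and 25 other probe sets passed it. The first probe sets were chosen for their p, so their size is high by construction. Their median size was 1.19, and that of the other probe sets 0.19. The sign was the same at 16 of 25, that is 5 of 10 on chromosome 3, 2 of 3 on chromosome 10 and 9 of 12 on other chromosomes. Of the 25, 4 had an unadjusted p under 0.05 (beside 7.81% of all probe sets), 3 with the sign of the first. The genes named here were chosen after their values were seen. *Traf6*, a chromosome 3 gene for a ubiquitin ligase of innate immune signalling, gave 0.90 at the first probe set and 1.20 (SE 0.24), -0.16 and -0.29 at the others. *Wipi1*, an autophagy gene on chromosome 10, gave -0.77 and -0.61 (SE 0.17). *Mgll*, a lipase gene, turned its sign, from 1.23 at the first probe set to -0.20 and -0.34 (SE 0.12, unadjusted p = 0.034, limma) at the others. *Sppl2a*, an intramembrane protease gene on chromosome 3, gave 1.22 at 1 probe set and -0.05, 0.00 and -0.21 at the others.

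**Figure D2:**
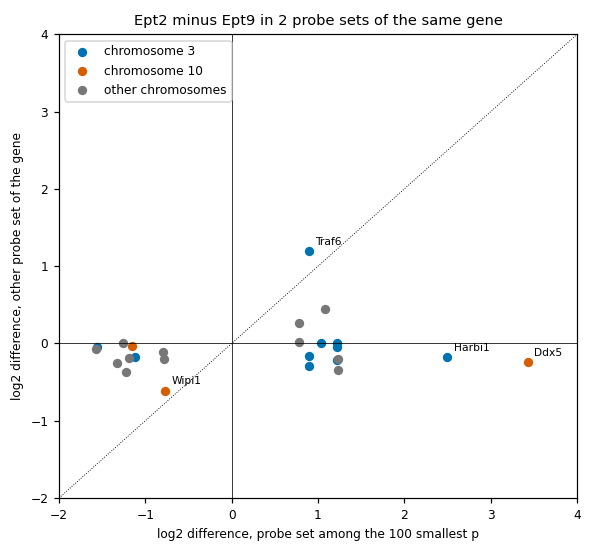
Log2 difference Ept2 minus Ept9 of 25 other probe sets with a mean signal of at least 70.2 (y axis) against that of the 19 first probe sets of the same genes, which are among the 100 with the smallest p (x axis); colours give the chromosome and the dotted line marks equal values. Most points lie near 0 on the y axis, *Ddx5* at 3.43 and -0.24 and *Harbi1* at 2.50 and -0.17, while *Traf6* (0.90 and 1.20) and *Wipi1* (-0.77 and -0.61) lie near the dotted line.

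Across the genome, the shares of probe sets with an unadjusted p under 0.01 were highest on the chromosomes that carry the COP segments of these lines. The share was 3.35% on chromosome 10 (58 of 1733) and 3.19% on chromosome 3 (50 of 1565), beside 2.04% of all 20758 probe sets with a chromosome. The 19 other chromosomes ran from 0.812% (chromosome 16) to 2.78% (chromosome 14), and together held 316 of 17455 (1.81%). Neighbouring genes are not independent, so these shares are a description without a test. With an unadjusted p under 0.05 the order was less clear: chromosome 3 was highest at 9.58%, chromosome 13 gave 9.20% and chromosome 10 gave 8.42%, beside 7.45% of all. Of the 424 probe sets with an unadjusted p under 0.01, 316 lay on chromosomes that carry neither segment. Those chromosomes hold 17455 of the 20758 probe sets (84.1%), so their share of 1.81% was under the 2.04% of all.

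**Figure D3:**
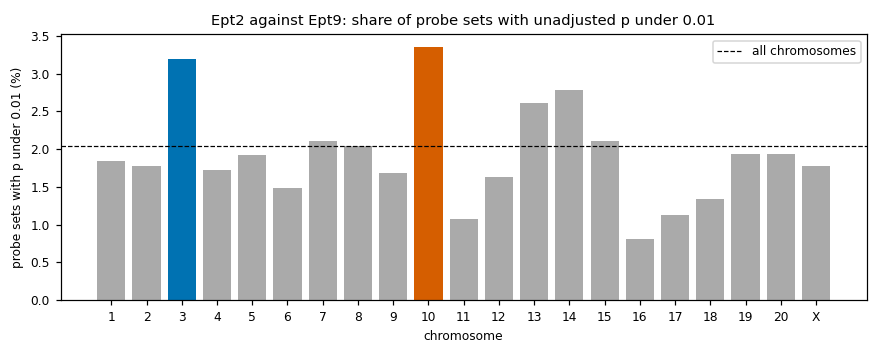
Percent of the probe sets on each chromosome (x axis) with an unadjusted p under 0.01 between Ept2 and Ept9 (y axis from 0); blue marks chromosome 3, orange chromosome 10, and the dashed line the 2.04% of all chromosomes. Chromosomes 10 (3.35%) and 3 (3.19%) stand highest, followed by chromosome 14 (2.78%).

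Along chromosome 10 the low p-values were unevenly placed. Of its 1213 measured genes in annotated order, genes 1 to 303 held 2 of 425 probe sets with a p under 0.01 (0.471%), genes 304 to 606 held 13 of 413 (3.15%), genes 607 to 909 held 21 of 459 (4.58%) and genes 910 to 1213 held 22 of 436 (5.05%). *Serpinf1* ranked 585 in that order, *Cwc25* 843 and *Ddx5* 1026. Of the 1072 genes on chromosome 3, genes 269 to 536 held 18 of 384 probe sets (4.69%) and genes 537 to 804 held 15 of 399 (3.76%), against 9 of 393 (2.29%) before them and 8 of 389 (2.06%) after. *Ptprj*, *Harbi1*, *Iftap*, *Zfp770* and *Spint1* ranked 407, 432, 459, 522 and 548. The positions of the segments themselves were not used.

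**Figure D4:**
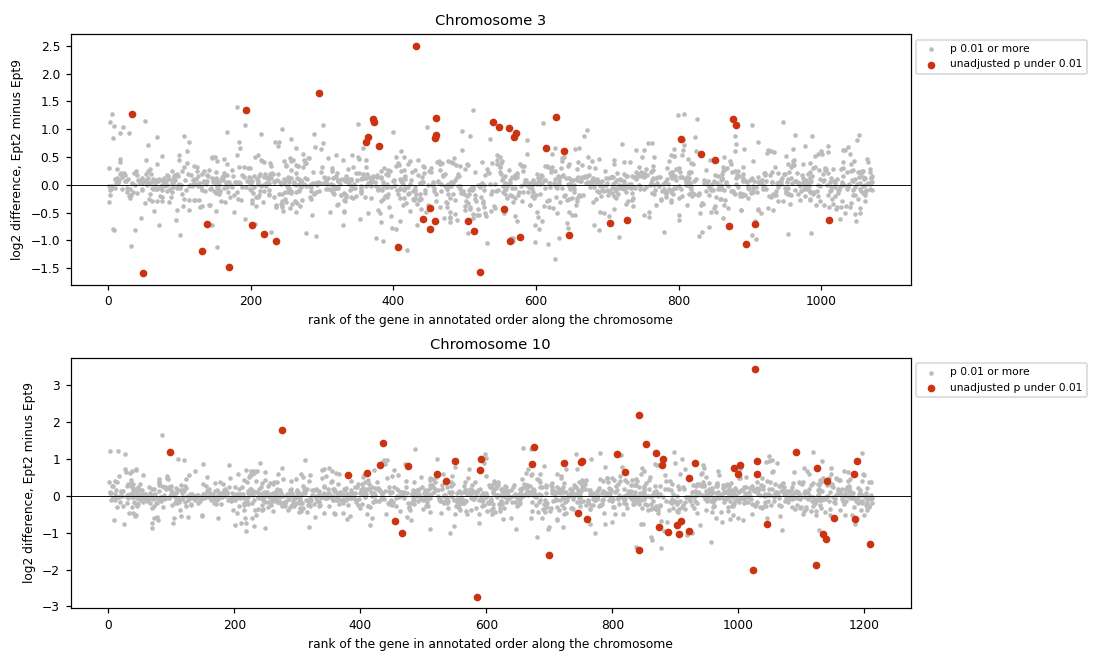
Log2 difference Ept2 minus Ept9 (y axis) of each probe set against the rank of its gene in annotated order along chromosomes 3 (top) and 10 (bottom); red points have an unadjusted p under 0.01. On chromosome 10, genes 1 to 303 hold 2 red points of 58, and the point at 3.43 is the called *Ddx5* probe set; on chromosome 3, genes 269 to 536 hold 18 of 50.

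No hormone gene passed the test. *Prl* read 45078, 51767 and 43841 in Ept2 and 43469, 43776 and 46327 in Ept9 (0.07, SE 0.12, 95% confidence interval -0.22 to 0.37). Its groups overlapped, at percentile 100 of every array. *Gh1* read 36070 to 40693 in Ept2 and 31495 to 33732 in Ept9 (0.22, SE 0.11, unadjusted p = 0.103, limma), groups that did not overlap. *Tshb*, the thyrotropin subunit gene, read 18692, 7187 and 9820 in Ept2 and 6629, 7236 and 5666 in Ept9 (0.76, SE 0.36), with Ept2 array 1 far above the rest. *Fshb*, the follitropin subunit gene, had the same high array (678, 234 and 331 against 146, 224 and 191, difference 0.97, SE 0.40). *Lhb* (0.14, SE 0.13), *Cga* (0.16, SE 0.12) and *Pomc* (0.56, SE 0.50) completed the set. All 6 measured gonadotroph genes had positive differences with a median of 0.38, and none had an unadjusted p under 0.05. Ept2 array 1 was again the high one for *Gnrhr*, the receptor gene of gonadotropin-releasing hormone (946, 243 and 377 against 303, 321 and 269), and for the transcription factor gene *Nr5a1* (473, 155 and 324 against 168, 139 and 184). Without that array the median was 0.13, *Gnrhr* differed by 0.03, *Nr5a1* by 0.43, *Fshb* by 0.55 and *Tshb* by 0.37. With the GAPDH covariate the list median was -0.14.

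Receptors through which estrogen and dopamine act on lactotrophs gave overlapping groups. *Esr1*, the estrogen receptor gene, was dim (means 50.5 and 68.7, -0.37, SE 0.34) and *Drd2*, the dopamine receptor gene, was bright (4553 and 4655, -0.04, SE 0.13, 95% confidence interval -0.37 to 0.29). Of 8 lactotroph genes only *Trhr*, the receptor of thyrotropin-releasing hormone, had an unadjusted p under 0.05 (means 3732 and 2737, 0.44, SE 0.14). Of 18 estrogen response genes only *Ccnd1* did (2163 and 1746, 0.31, SE 0.12), and the median of that list was 0.00. Among 5 corticotroph and melanotroph genes, the transcription factor gene *Neurod1* read 426, 348 and 302 in Ept2 and 141, 174 and 146 in Ept9 (1.13, SE 0.17, limma adjusted p = 0.183). *Avpr1b*, the vasopressin receptor gene, was higher (136 and 90.2) and *Pcsk2*, a prohormone convertase gene, lower in Ept2 (1016 and 1575, -0.63, SE 0.16), each with an unadjusted p under 0.05. *Neurod1* and *Pcsk2* lie on chromosome 3.

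No cell cycle gene was called in the 6-array fit. Of 37 measured cell cycle genes, 29 had a negative difference and 8 a positive one, with a median of -0.18 beside 0.02 for all genes. An unadjusted p under 0.05 on the lower side was reached by 5, *Birc5*, *Bub1* (106 and 183), *Ccna2* (175 and 294), *Ccnd2* (5260 and 7003) and *Mki67*, and on the higher side by 1, *Ccnd1*, beside 2.74% and 4.4% of all genes. Without Ept2 array 1 these counts were 2 and 1, with 27 negative and 10 positive differences and a median of -0.13. *Mki67*, the proliferation antigen gene, read 476, 486 and 530 in Ept2 and 626, 583 and 629 in Ept9 (-0.29, SE 0.11, limma adjusted p = 0.626). Its groups did not overlap, and Ept1 (555 to 677) and Ept6 (537 to 682) read at the level of Ept9. *Pcna*, a replication clamp gene, read 3582 to 4149 and 3858 to 4534 (-0.10, SE 0.13), and *Myc* 1086, 658 and 789 against 674, 642 and 558 (0.40, SE 0.21), both with overlapping groups.

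Further lists held no called member, and the members named were those with an unadjusted p under 0.05, which 2.74% of all genes had on the lower side and 4.4% on the higher. Immediate early genes respond within minutes to stimulation. Of 19 measured, *Ier2* (521 and 895), *Junb* (722 and 1102), *Fos* (2206 and 3155) and *Egr1* (2188 and 2743) were on the lower side (4 members). *Egr3* (115 and 85.4) was on the higher side (1 member). The list as a whole did not lean lower: 11 differences were positive and 8 negative, with a median of 0.05. Of 14 stroma and matrix genes, the proteoglycan genes *Dcn* (525 and 298) and *Lum* (145 and 66.3) were on the higher side and *Thy1* (5469 and 7469) and *Col3a1* (198 and 369) on the lower side, with a list median of -0.34. Among 19 genes of endoplasmic reticulum chaperones and the unfolded protein response, 12 CDK inhibitor and checkpoint genes and 14 angiogenesis genes, none had an unadjusted p under 0.05 in either direction, and their medians were 0.02, -0.01 and 0.03.

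**Figure D5:**
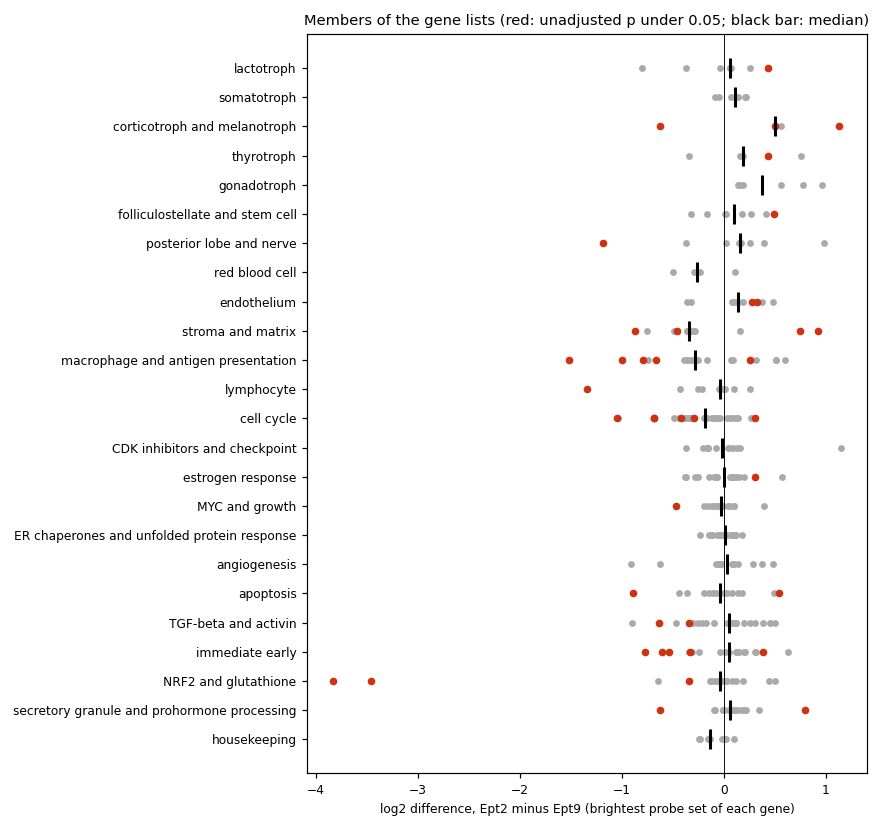
Log2 difference Ept2 minus Ept9 (x axis) of each measured member of 24 gene lists (y axis), with the list median as a black bar and members with an unadjusted p under 0.05 in red. Most members lie close to 0; *Akr1b8* (-3.83) and *Hmox1* (-3.46) of the NRF2 and glutathione list lie far to the left, and the cell cycle list centres at -0.18.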

How the data were processed

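Total RNA from anterior pituitaries was hybridised to 1-colour expression arrays, 1 per sample. The authors deposited linear intensity values (signals) for 31099 probe sets, scaled to a trimmed mean of 500.18 to 500.19 on every array; the software is not given in the sources used here. The number of arrays limits the precision. Leaving out 57 control probe sets, log2(signal + 16) was tested between 3 Ept2 and 3 Ept9 arrays with limma 3.58.1 (lmFit, eBayes) in R 4.3.3 and Benjamini-Hochberg adjustment at 0.05, after a check on simulated data. Groups came from the sample titles. By the platform annotation, 20826 probe sets have 1 symbol, 436 have several and 9780 have no symbol here. Gene order and chromosomes are those of RefSeq (GRCr8). Unless a probe set is specified, list members are read by their brightest probe set.

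Named genes were the called ones, the called members of 24 gene lists, 12 hormone and growth genes, and, with fewer than 10 calls, the 20 probe sets with the smallest p; all others, list members below an unadjusted p of 0.05 included, were picked with their values in view. The comparison and lists were chosen with earlier results of these data known. Alternatives were pseudocounts of 1 and 64, filters at the 40th and 60th percentile of mean signal, quantile normalization, median centring, 12 arrays in the fit, a replicate block, an eBayes trend, array weights, a GAPDH covariate and each array left out.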

Additional observations from a re-analysis of the deposited data

How the results depend on the processing

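The count of called probe sets, 2 (1 higher and 1 lower in Ept2), stayed at 2 with quantile normalization, median centring and array weights. It was 3 (2 higher, 1 lower) with a pseudocount of 1 and 15 (4 higher, 11 lower) with 64. Leaving out dim probe sets gave 28 (10 higher, 18 lower) at the 40th percentile, a signal of 70.2, and 92 (32 higher, 60 lower) at the 60th. The fit over 12 arrays gave 51 (16 higher, 35 lower) and the eBayes trend 110 (34 higher, 76 lower). The 40th percentile filter and the 12-array fit shared 18 calls, 64.3% of the former and 35.3% of the latter. The GAPDH covariate, which was itself higher in Ept2 on every array, gave 0 calls (2120 probe sets at an unadjusted p under 0.05, limma). Leaving out each array in turn gave 0 calls each time (0 to 0, with 2042 to 2619 at an unadjusted p under 0.05, limma), in each direction. These settings change the degrees of freedom, the number tested or the estimate of spread, and the cause was not tested further.

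The replicate block gave 0 calls (0 higher, 0 lower, with 2305 at an unadjusted p under 0.05, limma). Deviations of same-numbered arrays correlated between 0.00 and 0.01, so these values show no pairing of the arrays by number. A pairing limited to few genes was not tested.

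Over the alternatives of the named genes, 730 values kept direction and call, 91 gained a call, 16 lost it and 5 changed sign, none of the 5 called. With the GAPDH covariate *Myc* was -0.05, *Lhb* -0.07 and *Drd2* 0.18. With each array left out, *Prl* ran from 0.00 (without Ept2 replicate 2) to 0.12 and *Drd2* from -0.11 to 0.06 (without Ept2 replicate 1). No setting moved the median of all probe sets outside -0.034 to 0.047. Of 408 list medians under the alternatives, 53 moved by more than the spread between arrays, 11 of them with the GAPDH covariate (gonadotroph -0.14, cell cycle -0.31, stroma -0.49) and 9 with median centring. With each array left out the macrophage median ran from -0.40 to -0.05 and the gonadotroph median from 0.13 to 0.66.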
